A study of Caenorhabditis elegans with 2 samples.

Results

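In a late-embryo chromatin immunoprecipitation, 18832 peaks of HLH-30 binding were called on both replicates together. Of these, 2779 had their summit inside the transcribed body of a gene and away from annotated protein-coding starts. These peaks were chosen by position alone. The summit lay on an autosome, in a coding exon or a 3′ UTR of a protein-coding gene, and more than 500 bp from every annotated protein-coding start. Coding exons held 2446 of them and 3′ UTRs held 333. They are called exonic peaks here, and were set against the other 12446 autosomal peaks, of which 3298 were intronic and 4090 intergenic beyond the same 500 bp.

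Both samples were late embryonic Caenorhabditis elegans hermaphrodites, taken whole, of strain OP433, with the genotype unc-119(tm4063) III; wgIs433. The wgIs433 transgene makes HLH-30 with a C-terminal GFP-FLAG tag, and an antibody against GFP pulled down the sonicated chromatin. The 2 biological replicates form a single group. Both carry the transgene and the unc-119 allele, and no second genotype, stage or treatment was compared. The labels name a control experiment, which was not analysed here as a library. Whole embryos were used, so binding in few cells and weak binding in many cells cannot be told apart, and only the tagged copy of the factor was pulled down. The replicate 1 list held 11695 peaks and the replicate 2 list 30000. The authors' optimal list, thresholded by the irreproducible discovery rate (IDR, which compares the ranks that replicates give to peaks), held 1959 peaks, which are the pooled peaks of highest signal. Signal is the authors' value per peak made against a control, and it ranks peaks within one list only.

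HLH-30 is the worm homologue of mammalian TFEB, a basic helix-loop-helix leucine zipper factor known for switching on autophagy and lysosome genes during starvation and stress. Factors of this family bind DNA as dimers at the E-box, a palindrome read the same on both strands, and the bases beside the core help to set which family member binds. Factors are usually looked for at promoters and enhancers, whereas coding exons are under constraint for the protein they encode, and a peak there may or may not bear on the expression of its host gene.

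Sites under strong exonic peaks with a core E-box are shown here, picked among the optimal peaks by the bases beside the core. Some peaks as strong or stronger are not shown. Each line gives 30 bases of the RefSeq WBcel235 genome (ce11), 5′ to 3′ on the strand of the host gene, with the core E-box CACGTG in capitals. Those of srx-12 (chrIV:1047361-1047390, plus strand), Y57A10A.31 (chrII:12296769-12296798, plus), coa-7 (chrII:11649387-11649416, minus), chil-26 (chrII:9476201-9476230, plus) and C49C3.10 (chrIV:17337284-17337313, minus) were in coding exons and have a T before the core and an A after it.
srx-12: atggctattggtCACGTGattccgtatttc
Y57A10A.31: ctcgagtgtggtCACGTGatgtgtcgtacc
coa-7: ttggcagtctgtCACGTGatatggacaaaa
chil-26: tatcgatatggtCACGTGacatggattatc
C49C3.10: aatgtgatatgtCACGTGatcttcttttcc

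A second set, also from coding exons, has that T on one strand only. It comes from plr-1 (chrIII:11459956-11459985, plus), sma-1 (chrV:11908365-11908394, plus), T24C4.2 (chrIII:868764-868793, minus) and psr-1 (chrIV:4655034-4655063, plus). The 3′ UTR of C05D11.8 (chrIII:6421288-6421317, minus), which held the strongest exonic peak, has the same form.
plr-1: tcggacccgcatCACGTGtcgaaaggacca
sma-1: aatacatcgaagCACGTGattcgaaacttg
T24C4.2: gagaaacggaagCACGTGacaccaagacga
psr-1: ggatgaaggaatCACGTGgtttcagacggt
C05D11.8: aacgtgactcgtCACGTGgtgtcaaaagac

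Of the 29 optimal exonic peaks without the core, 15 had the variant CATGTG, which reads CACATG on the other strand. It is shown in capitals for the 3 strongest of them, in the coding exons of F58H1.7 (chrV:11964261-11964290, minus), of ncx-3 (chrIV:10718313-10718342, plus), a sodium-calcium exchanger gene, and of unc-26 (chrIV:13267430-13267459, minus), which encodes synaptojanin. The sites of ncx-3 and unc-26 have the T and the A beside it, and the stronger F58H1.7 has neither.
F58H1.7: cgagaacaagagCATGTGcacagcaggtga
ncx-3: cgagaaccatgtCACATGaccgtctctact
unc-26: gacttcaaatgtCACATGatcaagttgcat

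In the pooled list the frequency of exonic peaks per base lay between those of intronic and intergenic peaks over 500 bp from starts. Few exonic peaks were strong. The eligible exonic sequence, every autosomal base that meets the rule, spans 17.3 Mb or 20.96% of the autosomes. It held 161 peaks per Mb (95% Poisson interval 154.7 to 166.7). Introns held 150.01 per Mb (144.9 to 155.2), intergenic sequence 175.5 (170.2 to 181.0) and sequence within 500 bp of starts 253. Introns spanned 22.0 Mb and intergenic sequence 23.3 Mb. Exonic, intronic and intergenic peaks numbered 1380, 2122 and 2605 in the replicate 1 list, and 5287, 5259 and 6265 in that of replicate 2. Per base, exonic sequence was thus the lowest of these places in replicate 1 and the highest in replicate 2. Of the exonic peaks, 83 or 2.99% were in the optimal list, against 7.85% of intronic, 11.3% of intergenic and 11.7% of all other autosomal peaks. The background over all autosomal peaks was 10.1%. The differences of -4.87, -8.31 and -8.73 percentage points had adjusted p of 4.6e-17, 7.76e-40 and 6.49e-54 (two-sided Fisher's exact tests, Benjamini-Hochberg over 3). Their size depended on the list. Counting the first 1959 peaks of a single replicate's list in the same way, they were -8.75, -13.96 and -14.97 points in replicate 1 alone and -2.66, -5.17 and -5.24 points in replicate 2 alone. Peaks, not embryo collections, are the units of these tests, so their p-values do not measure spread between biological replicates.

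Median signal differed little between the places, at 17.5 in exonic, 18.05 in intronic and 19.0 in intergenic peaks. The gap lay in the upper tail. The highest coding-exon signal was 105, at rank 530 of the pooled list, and the highest 3′ UTR signal was 308, at rank 74, against 1042 in introns and 793 in intergenic sequence. Within the optimal list the medians were 56.3 for exonic, 73.7 for intronic and 74.3 for intergenic peaks. Exonic peaks accordingly made up 5.39% of the autosomal peaks in ranks 1 to 1959, 255 of 1584 in ranks 1960 to 3918, 17.9% in ranks 3919 to 7836 and 20.99% in the rest.

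**Figure D1:**
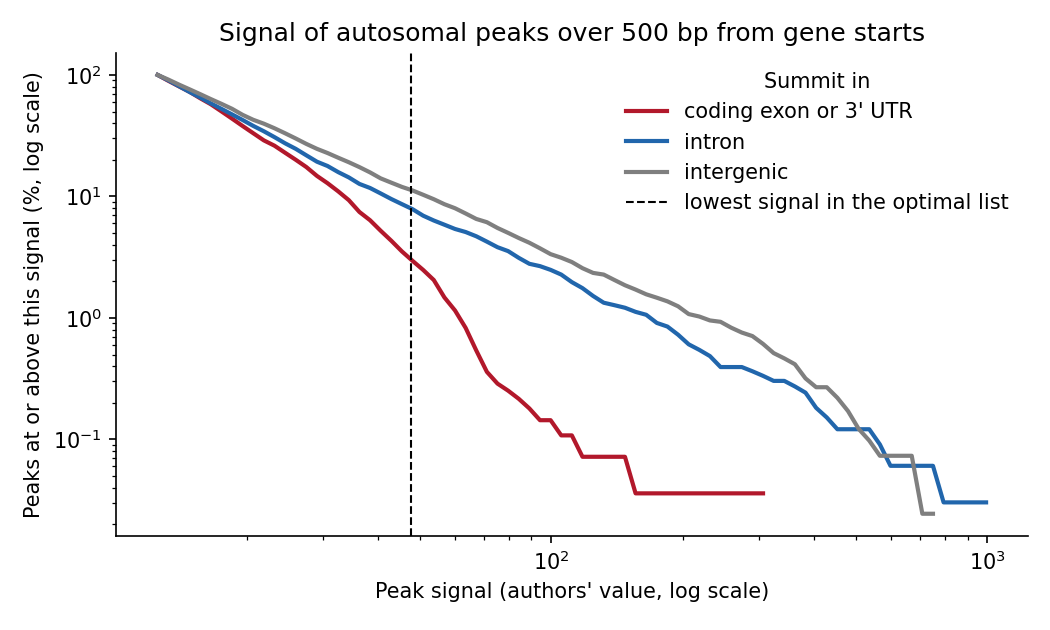
Share of peaks (vertical axis, %, log scale) at or above each signal (horizontal axis, the authors' value, log scale) for exonic, intronic and intergenic autosomal peaks over 500 bp from starts, with the dashed line at 47.7, the lowest signal of the optimal list. The curves start together and the exonic one falls away first, to 2.99% at the dashed line against 7.85% for introns and 11.3% for intergenic peaks.

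The core E-box was concentrated under exonic summits. CACGTG lay within 50 bp of 642 of the 2779 summits, 23.1%, against 1.71% of equally long flanking windows centred 500 bp away on each side. The ratio was 13.5, and the adjusted p over 7 words was 3.64e-135 (exact sign test, two-sided, on peaks whose centre differed from the flank, the larger p of both flanks kept). In exonic peaks with the word, its centre was a median of 17 bp from the summit. The share was 15.9% in intronic, 13.8% in intergenic and 14.3% in all other autosomal peaks (adjusted p = 1.82e-12, 4.05e-22 and 1.34e-27 for exonic against each, Fisher's exact test, Benjamini-Hochberg over 21 tests of 7 words in 3 classes). Over all autosomal peaks it was 15.9%. In replicate 1 alone the excess over flanks was 12.03 percentage points, against 21.4 in the pooled list. The differences there were 5.21 points from intronic, 4.94 from intergenic and 4.89 from other autosomal peaks, against 7.24, 9.26 and 8.79 in the pooled list.

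Exons themselves hold more core E-boxes, which moves with that comparison. The word lay within 50 bp of 2.48% of eligible exonic bases, 1.37% of intronic and 1.41% of intergenic bases. Divided by these, the share at summits was 9.31 times that of all bases in exons, 11.5 times in introns and 9.84 times in intergenic sequence. Against their own flanks the order was another, with ratios of 13.5 for exonic, 7.31 for intronic and 8.45 for intergenic peaks. The exons of coding-exon peaks had a median length of 340 bp, so flanks 500 bp away often lay outside that exon. These exonic flanks had the word in 1.71% of windows, below the 2.48% of eligible exonic bases. Whether exonic peaks exceed the others over the whole list thus depended on the baseline, neither comparison of ratios was tested, and the part of base composition was not tested further. Of the 4739 core E-boxes in eligible exonic sequence, 684 or 14.4% had a pooled summit within 50 bp (95% exact interval 13.4% to 15.5%), against 17.6% in introns (16.24% to 19.0%) and 17.2% in intergenic sequence (15.9% to 18.4%).

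**Figure D2:**
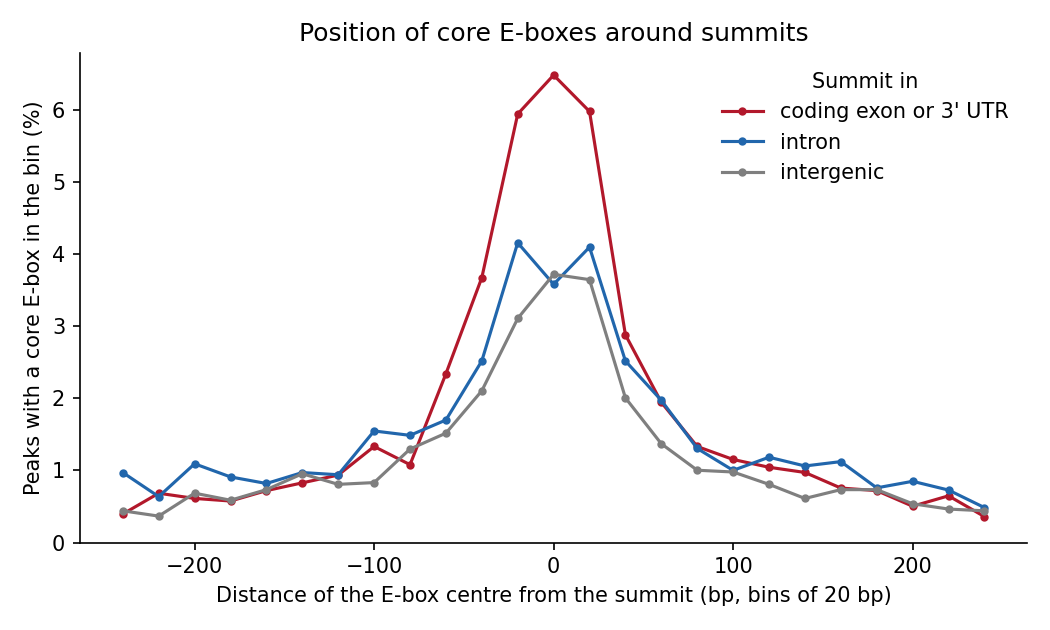
Share of peaks (vertical axis, %) with the centre of a core E-box in each 20 bp bin of distance from the summit (horizontal axis, bp), for exonic, intronic and intergenic autosomal peaks. All lines are highest within 30 bp of the summit, where the exonic line reaches 6.48%, and lie under 2% beyond 70 bp.

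Among the strongest peaks the core E-box was far more frequent at exonic summits than at others. In the optimal list 54 of the 83 exonic peaks had the core E-box, 65.1% (95% exact binomial interval 53.8% to 75.2%), against 22.8% of intronic peaks (17.8% to 28.4%), 19.7% of intergenic (16.17% to 23.6%) and 19.6% of all other autosomal peaks. The adjusted p were 1.26e-11, 4.42e-15 and 5.5e-17 (Fisher's exact tests over 4 rank bands in 3 classes). Relative to all bases of the same territory this was 26.2 times in exons, 16.6 times in introns and 14.01 times in intergenic sequence, given with no test. The core with T and A on its sides, TCACGTGA, is about equally frequent in the 3 territories, near 0.101% of exonic, 0.0948% of intronic and 0.122% of intergenic bases. It was at 23 of the 83 optimal exonic summits, 27.7%, against 6.95% of intronic and 4.76% of intergenic ones (Fisher's exact test, adjusted p = 1.09e-05 and 1.59e-08). In the whole pooled list its share did not pass the test against introns or intergenic sequence, at 2.84% in exonic peaks against 2.33% and 2.10% (Fisher's exact test, adjusted p = 0.234 and 0.0629). Against the 2.01% of all other autosomal peaks it passed (Fisher's exact test, adjusted p = 0.00992).

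The share of exonic peaks with the core E-box fell with signal, to 46.7% in ranks 1960 to 3918, 33.5% in ranks 3919 to 7836 and 14.9% below. It was 43.5% in the 694 exonic peaks of highest signal, against 11.8% in the 694 of lowest signal (difference 31.7 points, Fisher's exact test, p = 3.16e-41). In replicate 1 alone the difference was 15.9 points and in replicate 2 alone 31.6 points. Intronic peaks split in the same way had 27.7% and 7.77%, and intergenic ones 21.3% and 6.16%. Whether the slope differs between places was not tested. Intronic and intergenic shares did not fall at every step, as their second rank band was above the first, at 33.2% and 23.9%. Exonic peaks with the core had a median signal of 22.6 and were in the optimal list in 8.41% of cases, against 16.8 and 1.36% for exonic peaks without it.

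**Figure D3:**
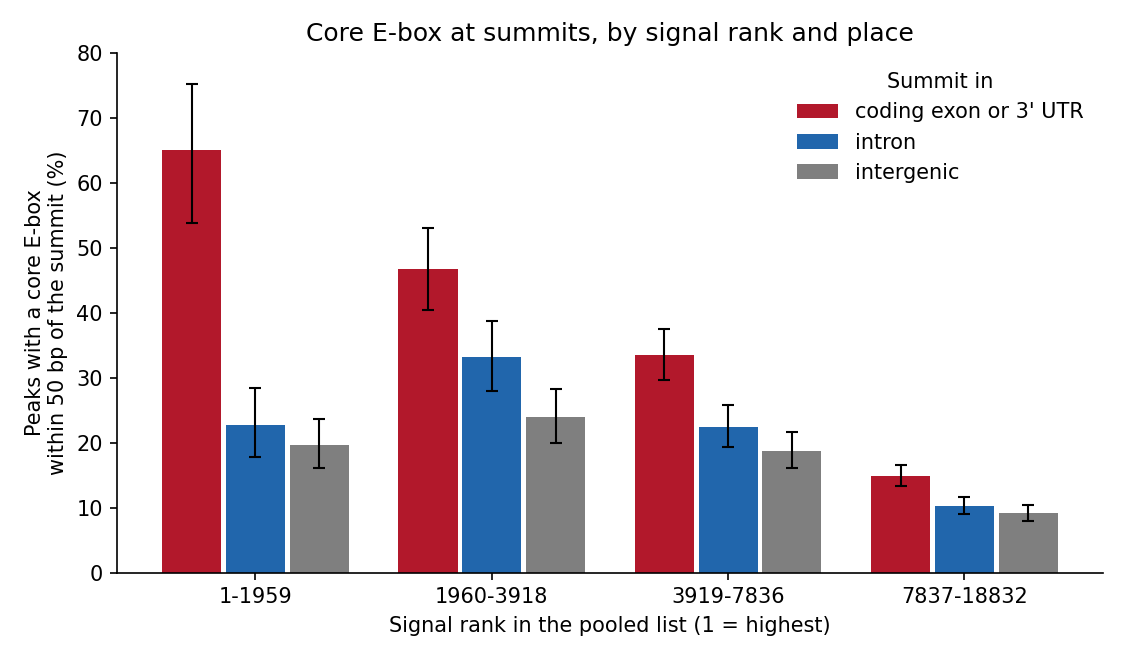
Share of peaks with a core E-box within 50 bp of the summit (vertical axis, %) by signal rank in the pooled list (horizontal axis), for exonic, intronic and intergenic peaks, with 95% exact binomial intervals as bars. The exonic share is highest in every band, and drops from band to band through 65.1%, 46.7%, 33.5% and 14.9%.

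Other words found at strong HLH-30 peaks elsewhere were less frequent at exonic summits. GAGAGA was at 2 of the 83 optimal exonic summits, 2.41%, against 37.8% of intronic and 37.9% of intergenic ones (Fisher's exact test, adjusted p = 1.1e-11 and 1.89e-12). In the whole list its share was 5.72% in exonic peaks, close to the 5.61% of eligible exonic bases, against 12.04% and 16.9% of intronic and intergenic peaks (Fisher's exact test, adjusted p = 1.08e-17 and 1.26e-45). ACGCAG was at 2.20% of exonic summits against 6.85% and 8.70% of intronic and intergenic ones. CGTCTC was at 4.25% against 7.52% and 9.93%, and CACACA at 4.61% against 8.31% and 9.98%. Each of these differences passed the test, with adjusted p of at most 1.01e-07. Against their own flanks, exonic summits had more GAGAGA (5.72% against 4.30%), CACACA (4.61% against 3.44%) and CGTCTC (4.25% against 2.77%). These passed the exact sign test (adjusted p = 0.0395, 0.0395 and 0.0266 over 7 words). ACGCAG did not, at 2.20% against 1.91% (exact sign test, adjusted p = 0.576). In the optimal list CGTCTC was at 13.3% of exonic summits, 3.71 times its share of exonic bases, against 25.9% of intronic and 28.8% of intergenic summits. ACGCAG was at 3.61% against 24.7% and 25.97%, and CACACA at 7.23% against 18.9% and 19.7%, with no test made of these 3 words between classes in that list. CATGTG did not pass against intronic or intergenic peaks, at 14.03% in exonic, 12.9% in intronic and 13.9% in intergenic peaks (Fisher's exact test, adjusted p = 0.234 and 0.887). Against the 12.4% of all other autosomal peaks it passed (Fisher's exact test, adjusted p = 0.0314). In the optimal list 15 exonic peaks had CATGTG without the core, so that 69 of 83, 83.1%, had one or the other, against 41.3% of intronic and 35.3% of intergenic peaks. The remaining 14 had neither, and 13 of those were matched in both replicates. All words were searched on both strands, and TCACGTGA contains CACGTG.

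How often an exonic E-box had a peak differed with the bases beside the core. These counts are a description added after the data had been seen. Of the 192 eligible exonic sites reading TCACGTGA, 79 or 41.1% had a summit within 50 bp (95% exact interval 34.1% to 48.5%). Sites with that T on one strand only had one in 379 of 1305 cases, 29.0% (26.6% to 31.6%). The most frequent form, with the T on neither strand, had one in 226 of 3242 cases, 6.97% (6.12% to 7.90%), and these intervals do not overlap. Introns followed the same order with 35.3%, 26.1% and 10.3%, and intergenic sites with 28.6%, 26.1% and 9.82%, where the first 2 differ by less than their intervals. In exons 31.6% of sites had the T on at least one strand, against 41.8% in introns and 43.7% in intergenic sequence. In each territory such sites were about the same share of the occupied ones, 67.0%, 65.9% and 67.8%. Among the occupied exonic sites near an optimal summit, 53 had the T and 6 did not.

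Coding exons and 3′ UTRs differed in the share of summits with the core E-box but not detectably in the share of optimal peaks. The core was at 24.2% of coding-exon summits and 14.7% of 3′ UTR summits (difference 9.53 points, Fisher's exact test, adjusted p = 0.000219 over 3), while the word was near 2.64% of coding and 1.31% of 3′ UTR bases. Of the core E-boxes themselves, 14.3% in eligible coding and 16.4% in 3′ UTR sequence had a pooled summit within 50 bp. Their 95% exact intervals overlap (13.3% to 15.4% and 12.1% to 21.3%), with no test made. Median GC content in the 101 bp at the summit was 42.6% for coding-exon peaks and 35.6% for 3′ UTR peaks. The optimal list held 3.03% of coding-exon peaks and 2.70% of 3′ UTR peaks (95% interval 1.24% to 5.07% for the 9 of 333), with adjusted p = 0.865 by Fisher's exact test. Median signal was 17.7 in coding-exon and 16.6 in 3′ UTR peaks, and the upper quartile 24.0 and 20.7, with no test made. Replicate 1 matched 30.1% of coding-exon and 39.9% of 3′ UTR peaks, and replicate 2 matched 78.6% and 67.3%, also not tested. Both replicates matched 19.5% and 21.6% (Fisher's exact test, adjusted p = 0.567). In the optimal list 51 of 74 coding-exon peaks and 3 of 9 3′ UTR peaks had the core.

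The strongest exonic peak of all lay in the 3′ UTR of C05D11.8 (WBGene00015485) on III, 6421141 to 6421414, with a pooled signal of 308. Its signal was 92.6 in replicate 1, at rank 104, and 216 in replicate 2, at rank 61. The next were also in 3′ UTRs and had no core E-box. That of kmo-2, a kynurenine monooxygenase gene, at V, 12065975 to 12066084, had a signal of 151 and ranks 211 and 332 in replicates 1 and 2. That of F55C12.6 on II had a signal of 113 and ranks 291 and 590. These 3 peaks were high in both replicates. The 3′ UTR of tat-4, for a flippase of the cell membrane, was uneven, with rank 11385 in replicate 1 and 622 in replicate 2 for a pooled signal of 68.4. Weaker optimal 3′ UTR peaks were those of chdp-1, Y71F9AL.10, M117.1, bam-2 and F31E3.2, between 59.4 and 48.4, of which M117.1 and F31E3.2 had the core. The tenth, of lin-23, an F-box protein of a ubiquitin ligase, was outside the list at 44.3.

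Among coding exons the peak in exon 29 of the 47 of dys-1, the worm dystrophin gene, was strongest, on I at 11539847 to 11540190. Its pooled signal was 105, with 30.2 in replicate 1 at rank 811 and 71.7 in replicate 2 at rank 475, and it had TCACGTGA. The peak in exon 3 of 5 of srx-12, a chemoreceptor gene, had a signal of 90.3 and similar ranks of 587 and 710. Those of Y57A10A.31 at 82.4, coa-7 (a cytochrome oxidase assembly factor) at 71.0, chil-26 (chitinase-like) at 70.5, oac-34 (an acyltransferase homologue) at 69.2, metl-17 (methyltransferase-like) at 64.9 and tric-1B.1 (a cation channel of internal membranes) at 62.8 also had TCACGTGA. F58H1.7 at 88.5 had CATGTG alone. The peaks of plr-1, a membrane ubiquitin ligase that lowers Wnt receptor levels, of sma-1, the heavy beta spectrin, and of npp-27, named for the nuclear pore, had signals of 79.2, 74.5 and 62.5. Each of these 3 had a core E-box and no summit within 100 bp in replicate 1, while in replicate 2 they stood at ranks 490, 786 and 923.

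Other coding-exon peaks among the 25 strongest were in T24C4.2, ssl-1 (an SNF2-family chromatin remodeller), psr-1 (the phosphatidylserine receptor homologue), B0303.4 and Y56A3A.31 with the core, in ncx-3 with the variant, and in imb-1 (importin beta) and hsd-1 (a hydroxysteroid dehydrogenase homologue) with neither. C49C3.10, shown above, completes them. In all, 18 of the 25 had the core, 20 had the core or CATGTG, 22 had a summit in replicate 1 and 25 in replicate 2. The summit in ssl-1 was 97 bp from an annotated snoRNA gene. Within 200 bp of a tRNA, snoRNA, snRNA, rRNA or miRNA gene lay 21 exonic summits, 0.756%, against 3.70% of intronic and 2.81% of intergenic ones (adjusted p = 4.5e-15 and 2.57e-10, Fisher's exact test over 2). The difference from introns was -2.94 points, and -1.96 points in replicate 2 alone. The share of bases near such genes was not counted for any of these places. These tests therefore cannot separate where noncoding genes lie from where peaks lie.

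Fewer exonic peaks than others were found in both replicates. A summit lay within 100 bp in both replicate lists for 548 of 2779, 19.7%, against 26.5% of intronic, 31.4% of intergenic and 32.3% of other autosomal peaks (adjusted p = 5.24e-10, 4.09e-27 and 6.22e-41, Fisher's exact test over 3). The background over all autosomal peaks was 30%. Replicate 2, the longer list, matched 77.3% of exonic, 73.4% of intronic and 78.3% of intergenic peaks. Replicate 1 matched 31.3%, 40.8% and 43.2%. Of the exonic peaks, 1599 were found in replicate 2 only, 322 in replicate 1 only and 310 in neither. In the optimal list 74 of 83 were matched in both, 89.2%, against 93.8% of intronic and 93.7% of intergenic peaks, which did not pass the test (Fisher's exact test, adjusted p = 0.171 for each, over 12 tests of 4 rank bands). Against the 95.95% of all other autosomal peaks in that list the difference passed (Fisher's exact test, adjusted p = 0.0267). In the lower rank bands the difference from introns did not pass either. The shares were 57.3% against 63.8%, 33.3% against 38.6% and 7.46% against 8.61% (Fisher's exact test, adjusted p = 0.158, 0.097 and 0.198). Against the intergenic 69.4%, 39.3% and 9.41% the difference passed in each of these bands (Fisher's exact test, adjusted p = 0.00655, 0.046 and 0.046). All of the 83 optimal exonic peaks had a summit in replicate 2. Their ranks differed between the replicates: 36 of 83, 43.4%, were within the first 1959 of replicate 1, against 75.3% of optimal intronic and 78.8% of optimal intergenic peaks, while 72, 86.7%, were within the first 1959 of replicate 2, against 89.6% and 89.4%. Depth per replicate is unknown, and its part in this was not tested.

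**Figure D4:**
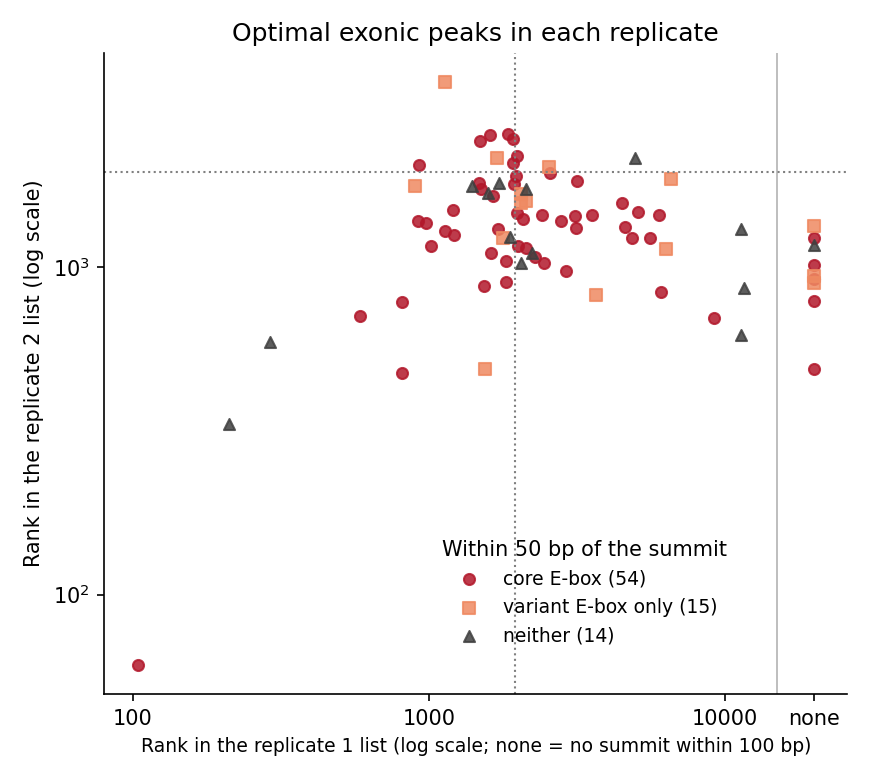
Rank of the 83 optimal exonic peaks in the replicate 1 list (horizontal axis, log scale) and the replicate 2 list (vertical axis, log scale), by the E-box at the summit. The 9 peaks with no replicate 1 summit stand at the right, and the dotted lines mark rank 1959, past which more of the 83 fall in replicate 1 than in replicate 2.

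The E-box result was seen in each replicate list alone, with the same positional rule applied to its own summits. In replicate 1 the core was at 13.7% of 1380 exonic summits, against 8.48% of intronic and 8.75% of intergenic ones (adjusted p = 1.59e-06 and 2.45e-06, Fisher's exact tests over 12). In replicate 2 it was at 20.05% of 5287 exonic summits, against 13.8% and 13.0% (Fisher's exact test, adjusted p = 4.38e-17 and 1.35e-23). In the first 1959 peaks of each list the exonic shares were 47.1% of 51 and 61.7% of 120, against 17.4% and 23.9% of intronic and 17.6% and 19.1% of intergenic peaks in replicates 1 and 2. The pooled list was built from the same reads, so these values are not independent of the pooled ones.

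The exonic peaks were spread over 2327 host genes, 14.9% of the 15619 autosomal protein-coding genes with eligible exonic sequence. Of these, 362 genes hosted 2 or more peaks and 67 hosted 3 or more, and 82 hosted an optimal one. Hosts were longer, with a median of 1461 eligible bp against 731 in the genes without a peak. The share of genes hosting one was 7.27% up to 1000 eligible bp, 23.3%, 49.1% and 63.5% in the longer classes (1001 to 3000, 3001 to 6000 and above). Longer genes offer more eligible sequence, and per 100 kb of it the values varied less, at 14.1, 16.9, 17.9 and 14.4 peaks in these classes. Most peaks were in the giant structural gene unc-89 (obscurin) with 8, then in unc-44 (ankyrin), unc-52 (perlecan) and vab-10 (spectraplakin) with 7 each. Those of dys-1, Y64G10A.7, sax-2, tln-1 (talin) and unc-40 (the netrin receptor) numbered 5 each. Y64G10A.7 alone hosted 2 optimal peaks. The FOXO factor gene daf-16 hosted 3, the strongest at 29.9. No exonic peak lay in hlh-30 itself, and unc-119 hosted one in its 3′ UTR with a signal of 21.8. Both genes were looked up because the transgenic strain concerns them.

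Along the coding sequence, exonic peaks lay much as the eligible bases did. Their median place was 59.3% of the way from start to stop codon (quartiles 37.3% and 79.99%), against 59% for eligible coding bases (38% and 79%). The last exon held 17.9% of them, against 17.2% of bases. Their exons had a median length of 340 bp, against 327 bp. Nearly all peaks, 99.9%, were 344 bp wide, so width carries no information. Near the limit of the rule, the 161 exonic peaks 501 to 600 bp from a start had a median signal of 17.1 and the core in 18.6%, and the 184 exonic summits 401 to 500 bp from a start, just outside it, had 17.2 and 16.8%.

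Host genes were then counted by function, beside the 14.9% of all genes and the 16.0 peaks per 100 kb of eligible sequence over all genes. No test was made of these lists, whose genes differ in length. Autophagy genes, the class HLH-30 is best known for, hosted a peak in 9 of 23 cases, at 30.01 per 100 kb. Their median was 1313 eligible bp, against 801 bp over all genes. Splicing and RNA-binding genes were close to that density at 29.7, translation factors at 28.5 and glycolysis genes at 27.3. Chaperones had 24.2, TORC1 and lysosomal sensing genes 23.9, collagens 22.3 and the respiratory chain 19.4. Muscle structure, E-box factors, chemoreceptors and the proteasome were below the value over all genes, and ribosomal proteins, histones and Rab GTPases hosted none. None of the autophagy peaks was in the optimal list. The strongest were in atg-4.1, a protease for Atg8 proteins, at 24.0 with the core E-box, atg-7, an activating enzyme of the same proteins, at 22.6, and the 3′ UTR of sqst-1, the p62 cargo receptor, at 21.4. The first 2 had no summit in replicate 1 and sqst-1 had none in replicate 2.

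TORC1 and lysosomal sensing genes hosted peaks in 7 of 15 cases, and 2 were optimal. Those lay in let-363, the TOR kinase, with TCACGTGA and a signal of 53.0 at ranks 2088 and 1405 in replicates 1 and 2, and in aakb-2, an AMP kinase beta subunit, with CATGTG, a signal of 54.9 and no replicate 1 summit. The peak of rict-1 (Rictor) followed at 42.8. Of glycolysis genes 5 of 16 hosted one, led by gpi-1 (glucose phosphate isomerase) at 62.4 with the core, then pfk-1.2 at 22.2 and ipgm-1 at 17.9. Muscle structure genes hosted 23 peaks in 9 of 25 genes, which at 14.5 per 100 kb was below the value over all genes. The strongest there were those of unc-89 at 52.1, pat-4 (integrin-linked kinase) at 46.5 with TCACGTGA, and unc-52 at 32.2.

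Among genes of gene expression and protein upkeep, splicing and RNA-binding genes hosted peaks in 14 of 49 cases (rsp-2 strongest, at 36.7), translation factors in 8 of 35 (eif-2A, 26.7) and chaperones in 12 of 52 (hsp-12.2, 34.4, then hsp-6 and enpl-1). Collagens had them in 23 of 144 (col-61, 42.9, with TCACGTGA), the respiratory chain in 4 of 30 (nuo-4, 37.7, with the core) and the proteasome in 2 of 33 (rpt-1 and rpn-3). E-box factors themselves had them in 4 of 29, at low signal. Of these, mml-1, a Mondo family gene, had 14.9, cnd-1, a NeuroD homologue, 14.7 and sbp-1, the SREBP homologue, 14.4 with the core. Chemoreceptor genes had peaks in 77 of 1244, at 9.65 per 100 kb, of which srx-12 and str-208 were optimal, the second at 55.6. Cytosolic ribosomal protein genes (0 of 43), histones (0 of 11) and Rab GTPases (0 of 19) hosted none. These last lists hold only 9.94, 4.68 and 11.8 kb of eligible sequence.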

How the data were processed

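Chromatin immunoprecipitation sequencing of 2 biological replicates was deposited as narrowPeak lists. The authors called peaks and background per replicate and on both replicates together, each against a control, and thresholded the optimal list by IDR, per the file descriptions they deposited. The signal values are the authors' own, used only to rank, filter or describe peaks within a list. Neither the aligner nor the caller nor the IDR threshold is given in the sources used here. Read totals are not used here, so depth is unknown. The ce10 lists were not analysed here.

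Summits were placed with Ensembl release 115 gene models and the RefSeq sequence of WBcel235, the assembly of ce11. Positions count from 1. Words were searched within 50 bp of summits, in flanks centred 500 bp away and around every eligible base. Summits were matched within 100 bp. Tests were Fisher's exact and exact sign tests with Benjamini-Hochberg adjustment and a threshold of 0.05 (Python 3.11.15, SciPy 1.17.1, pandas 2.3.3, NumPy 2.4.6), and the functions were tested on simulated data. The 95% intervals cover counting of peaks or sites only. The genes named are hosts of the 25 strongest exonic peaks (strongest of summits within 500 bp), the 10 strongest in 3′ UTRs, the 10 strongest with CACGTG, up to 3 per list, and hosts of 3 or more peaks. unc-26 was named for its sequence and hlh-30 and unc-119 for the strain, after values were seen. The peaks, the 7 words and the 15 gene lists were chosen with earlier results of these data known.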

Additional observations from a re-analysis of the deposited data

How the results depend on the processing

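Of 124 alternative values for 17 results under 13 settings, 117 kept their direction and their call, or moved by less than their interval. Settings varied the distance to starts, the transcripts that count, the thinning of close summits, the word window, the flank distance, the match distance and the list used. The excess of the core E-box over flanks ranged from 12.03 to 63.9 percentage points, and that of exonic over intronic peaks from 5.21 to 42.3 points with adjusted p of at most 2.08e-06. With the optimal list only, the difference in peaks matched in both replicates no longer passed Fisher's exact test against introns (-4.67 points, adjusted p = 0.157) or intergenic sequence (-4.57, 0.157, both adjusted over 3 tests), and did against other autosomal peaks (-6.80, 0.0267). Nor did that in noncoding genes nearby pass against intergenic sequence (-5.38, 0.0988). There are 83 exonic peaks in that list. At 250 bp from starts the difference of coding exons from 3′ UTRs in optimal share turned to -0.75 points, from 0.32, and neither passed the test. The cause was not tested. Exonic peaks per Mb were 79.8 to 306 in single replicate lists and 4.80 in the optimal list. Those lists differ in length, and exonic peaks were 1380 of 11695 in replicate 1 and 5287 of 30000 in replicate 2. What sets these densities was not tested. No paired analysis was possible because both samples form a single group. Without read depth, an absent peak in a replicate list does not show absent binding.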

Other observations

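Core E-boxes in coding sequence differed by codon frame in how often a summit lay within 50 bp, a description added after the data had been seen. In frame, where CACGTG encodes histidine and valine, 210 of 1272 sites had one, 16.5% (95% exact interval 14.5% to 18.7%). With the first base at the second codon position it was 317 of 2132, 14.9% (13.4% to 16.5%), and at the third codon position 99 of 1003, 9.87% (8.09% to 11.9%). Whether the flanking bases differ between frames, and their part in this, was not tested.

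A stronger pooled summit lay within 1000 bp of 14.03% of exonic peaks (12.8% to 15.4%), against 18.9% of intronic and 17.8% of intergenic peaks. By chromosome, exonic peaks numbered 187 per Mb of eligible sequence on III, 178 on I, 164 on II, 146 on IV and 137 on V.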
